A study of Sus scrofa with 27 samples.

Results

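The Notch receptors, ligands and target genes of mural granulosa cells (GCs), the cells that line the wall of the ovarian follicle, are described here as a set of 10 genes. The set holds the receptors NOTCH1, NOTCH2 and NOTCH3, the ligands JAG1 and JAG2, the fringe enzyme LFNG and the target genes HES1, HEY1, HEY2 and HEYL. It was chosen by gene name, with earlier results of these data known, and each of the 10 names matched 1 of the 35670 pig Ensembl identifiers in the deposited count files. The samples came from wild-type primiparous sows, a cross of Large White and Norwegian Landrace, whose ovaries were collected on day 2 after weaning. During the last 2 weeks of lactation, 13 full-fed (FF) sows received 6.5 kg of feed per day and 14 feed-restricted (RES) sows received 3.25 kg per day. The labels describe full feeding of both groups between weaning and ovary collection, whereas the methods of the study describe an equal reduced ration. Each library holds the mural GCs of 1 follicle of 1 sow, the largest healthy one, cut out by laser capture microdissection. The study kept the RES sows that lost the most body weight and the FF sows that lost the least, so the groups stand for the ends of the response to the diet rather than for randomly drawn sows.

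Notch signalling works between neighbouring cells that touch. A jagged or delta-like ligand on one cell binds a Notch receptor on the next, the receptor is cut by an ADAM protease and then by the gamma-secretase complex, and the freed intracellular part enters the nucleus, where it joins the DNA-binding protein RBPJ and switches on HES and HEY genes, which encode transcriptional repressors. Fringe enzymes such as LFNG add sugars to the receptor and alter which ligand it answers to. In the ovary, JAG1 and NOTCH2 are known for contact between oocyte and granulosa cells during follicle assembly, whereas NOTCH1, NOTCH3, NOTCH4 and DLL4 are well known from the blood vessels, which lie outside the granulosa layer in a healthy follicle.

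The total count per library ran from 12299220 to 16021200 read pairs in FF sows and from 12942198 to 18120922 in RES sows. Counts were made comparable between libraries by dividing them by a size factor per library, and a value so divided is called a scaled count below. Markers of GCs were abundant in every library, with a summed scaled count of 11 granulosa markers from 79535.7 to 161120.2. Markers of other cells were present as well and are described beside the results they touch. The library of RES sow 7 had the highest summed level of the endothelial, mural vessel, theca, stroma and immune markers among RES sows. The libraries also fell into an upper and a lower read-quality group at a gap in the base quality that the study lists, with 7 FF and 7 RES sows in the upper group and 6 FF and 7 RES sows in the lower one. Which quality entry belongs to FF sow 10, here in the lower group, is uncertain. The study left out an FF sow for an abnormal RNA integrity pattern, and the entry it numbers FF 10 has the lowest RNA integrity listed. Among FF libraries, that of FF sow 10 was the highest for NOTCH3, HEYL and LFNG and the lowest for RBPJ, ADAM10 and SNW1. Fold changes of the lower group are also given without FF sow 10 for NOTCH3, JAG1, HES1, HEYL and DLL4. They come from a fit added after the data had been seen. Correlations within that group would be left with 5 FF sows and are given with FF sow 10 only. In bulk samples, fewer cells of a type and less RNA per cell cannot be told apart.

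Of the target genes, HES1, HEY2 and HEYL are shown first by sequence, since the DNA before their start sites is where RBPJ is known to act. The windows are taken from the Sscrofa11.1 genome at RefSeq gene starts and run 5′ to 3′ on the strand of the gene, with TGGGAA, the core of the RBPJ motif, in capitals on either strand (TTCCCA when read on the other strand). The annotated HES1 model begins almost at its coding sequence, so the 100 bases shown for HES1 lie 350 to 251 bases before that start (chr13:131135620-131135719, plus strand). The 250 bases before the HES1 start, the window used for the other genes, held no TGGGAA. The windows of HEY2 (chr1:37231322-37231571, minus strand) and HEYL (chr6:95459598-95459847, minus strand) are the 250 bases before each start.
HES1: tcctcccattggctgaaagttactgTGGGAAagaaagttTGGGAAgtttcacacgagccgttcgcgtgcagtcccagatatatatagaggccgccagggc
HEY2: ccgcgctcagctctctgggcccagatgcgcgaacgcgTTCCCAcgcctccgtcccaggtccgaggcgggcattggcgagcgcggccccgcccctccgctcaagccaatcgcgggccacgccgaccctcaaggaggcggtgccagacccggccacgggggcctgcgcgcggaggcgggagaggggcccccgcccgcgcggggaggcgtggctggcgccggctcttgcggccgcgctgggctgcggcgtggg
HEYL: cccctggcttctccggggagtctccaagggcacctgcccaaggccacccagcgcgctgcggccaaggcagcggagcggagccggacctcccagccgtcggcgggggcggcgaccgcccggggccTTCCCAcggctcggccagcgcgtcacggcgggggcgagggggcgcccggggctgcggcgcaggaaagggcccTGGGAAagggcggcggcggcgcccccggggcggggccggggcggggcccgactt
The HES1 stretch, shown because it holds the motif, has TGGGAA 325 and 311 bases before the annotated start, on the same strand. HEY2 holds it 213 bases and HEYL 126 and 54 bases before the start. In HEY2 and HEYL, the copy at 213 and 126 bases is the longer form CGTGGGAA, which contains the core and lies on the other strand. Among 20664 annotated promoters of the same length, 24.6% held TGGGAA and 0.803% held CGTGGGAA. The longer form was looked for after the sequences had been seen. At least 1 TGGGAA within 500 bases was present before 43.9% of 20657 genes and at least 2 before 12.2%. Of the other members, NOTCH2 and LFNG held 1 TGGGAA each in their 250 bases, and JAG1, JAG2, NOTCH1 and NOTCH3 held none. The CACGTG and CACGCG boxes that HES and HEY proteins bind were searched on both strands as well, and CACGCG was found in the window of LFNG (9.37% of all promoters held CACGCG and 6.16% held CACGTG). These matches describe letters in a window and were not measured as binding.

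The members differed widely in level. Scaled counts were divided by the summed exon length of the RefSeq model, in kilobases (kb), to compare genes. HEY2 stood highest at 407.9 ± 103.2 scaled counts per kb (SD, n = 27) and exceeded NOTCH2, at 101.6 ± 15.7, in 27 of 27 libraries. HEY2 encodes a repressor best known from arteries and the heart, and NOTCH2 was the leading receptor of the set. JAG1 followed at 59.5 ± 26.8 scaled counts per kb and was below NOTCH2 in 24 of 27 libraries. HES1 followed at 45.7 ± 16.0 per kb, a value that rests on a model of 0.854 kb with hardly any untranslated sequence. The gap between JAG1 and HES1 was smaller than their spread, with JAG1 the higher in 20 of 27 libraries. HEYL (8.39 ± 4.81 per kb), NOTCH3 (5.41 ± 2.59 per kb) and HEY1 (3.65 ± 1.78 per kb) formed a lower tier whose neighbours overlapped. NOTCH1, at 1.54 ± 0.727 per kb, and LFNG, at 0.488 ± 0.282 per kb, lay below them, and the annotated LFNG model is unusually long and overlaps CHST12 and GRIFIN. JAG2 was lowest at 0.359 ± 0.346 per kb, with 25 counts over the FF and 18 over the RES libraries.

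**Figure D1:**
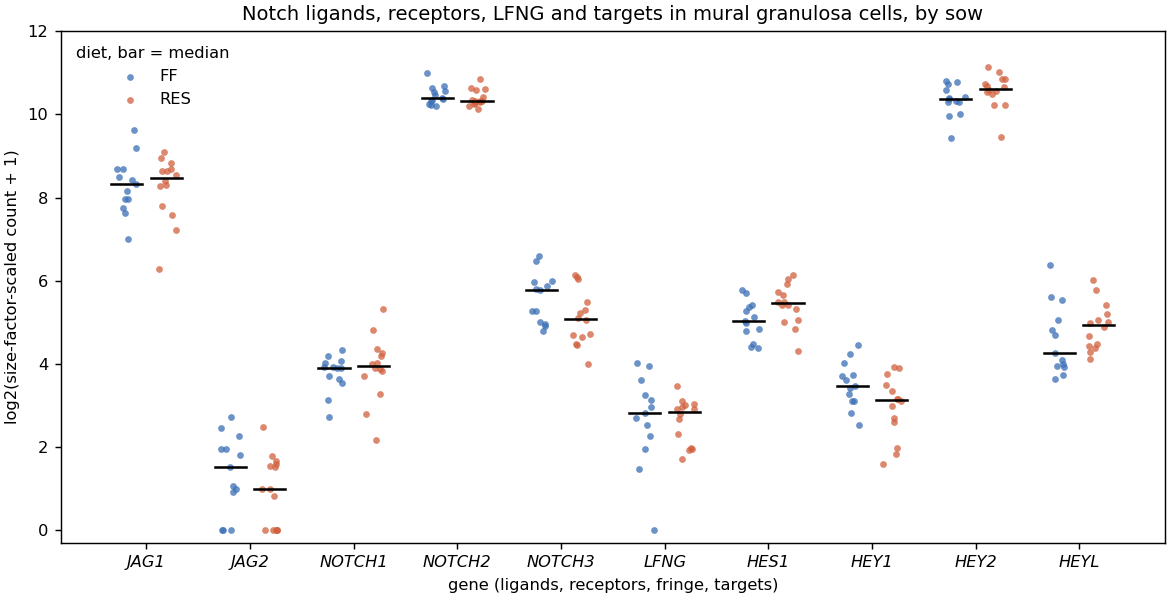
Each point is 1 sow and gives log2(size-factor-scaled count + 1) of a member in FF (blue) and RES (orange) libraries, with the group median as a bar. The medians of HEY2, NOTCH2 and JAG1 stand above those of the other 7 genes, and the FF and RES values overlap for each of the 10 genes.

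The comparison of RES with FF sows asks whether lactational feed restriction changed the Notch genes of the GCs after weaning. Of the 10 members, 9 had a mean count of at least 5 and were tested with edgeR's quasi-likelihood test among 11384 genes, and 0 of 9 had a Benjamini-Hochberg adjusted p under 0.05, against 14.1% of all genes tested. At an unadjusted p under 0.05 the count was 2 of 9, NOTCH3 and HEY1, both lower in RES sows, a rule that 14.3% of all genes met in that direction. DESeq2 also called 0 of 9 (17.0% of all genes). Voom with sample quality weights called 1 of 9, NOTCH3 (28.0% of all genes). The estimate was above 0 for 4 members and below 0 for 5, with a median log2 fold change of -0.102, beside -0.015 over all genes tested.

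Among the ligands, JAG1 (chr17:19591248-19629659, minus strand) encodes a membrane-bound jagged ligand and was the only abundant ligand of the set. Its scaled count ran from 127.8 to 793.1 in FF sows with a median of 322.5, and from 76.6 to 545.2 in RES sows with a median of 353.9. The groups overlapped over most of their range, with the highest value in FF sow 7 and the lowest in RES sow 4. The log2 fold change was -0.11 (SE 0.25, 95% interval -0.61 to 0.39, adjusted p = 0.80, edgeR). It lay at 0.05 without FF sow 7 and between -0.19 and 0.05 when any 1 library was left out.

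The pooled JAG1 estimate joined opposite estimates in the read-quality groups. In the upper group, JAG1 ran from 196.1 to 793.1 with a median of 359.7 in 7 FF sows and from 76.6 to 370.9 with a median of 219.8 in 7 RES sows. In the lower group, it ran from 127.8 to 412.5 with a median of 268.4 in 6 FF sows and from 337.0 to 545.2 with a median of 409.7 in 7 RES sows. RES sows were thus mostly low in one group and mostly high in the other. The log2 fold change was -0.87 (SE 0.34, edgeR adjusted p = 0.083) in the upper group and 0.60 (SE 0.21, edgeR adjusted p = 0.25) in the lower group, so that neither passed the threshold. Without FF sow 10 the lower-group value was 0.58 (SE 0.22, edgeR adjusted p = 0.309). The difference between them, fitted as an interaction in 1 edgeR model after the pattern had been seen, was -1.47 (SE 0.42, unadjusted p = 0.00167, adjusted p = 0.182). No gene passed the adjusted threshold for that interaction (0.0% of 11384 genes), whereas 12.3% had an unadjusted p under 0.05. Within the upper group 17.8% of all genes were called and within the lower group 0.00878%, and 0 of 9 members were called in either. The part that read quality itself plays in the JAG1 values was not tested.

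**Figure D2:**
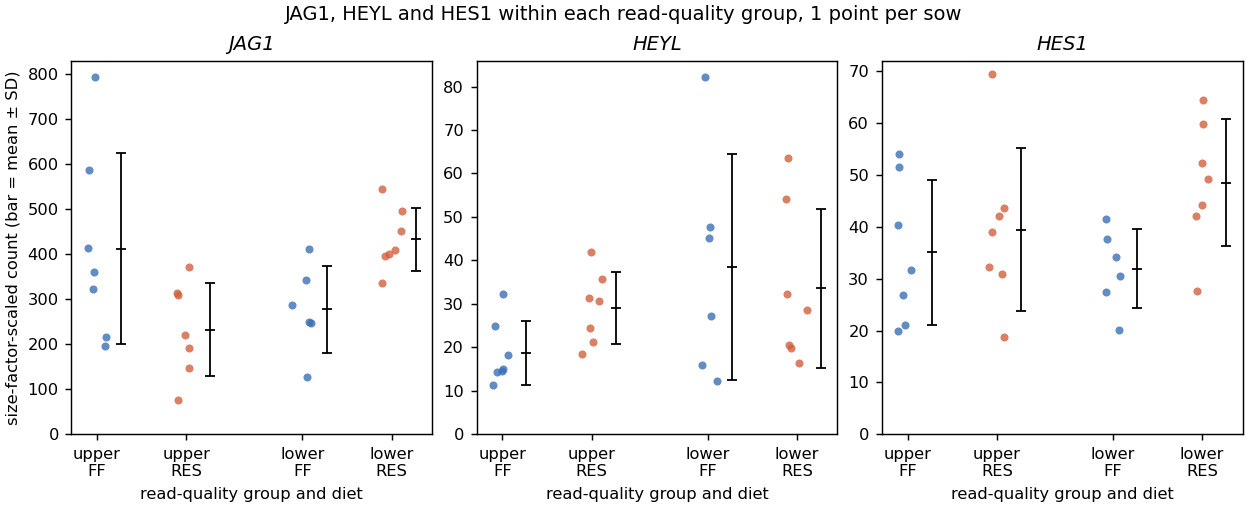
Each point is 1 sow and gives the size-factor-scaled count of JAG1, HEYL or HES1 for FF (blue) and RES (orange) sows in the upper and the lower read-quality group, with the mean and SD beside the points. JAG1 was lower in RES sows of the upper group (mean 232.7 against 412.4) and higher in RES sows of the lower group (433.5 against 277.6).

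JAG2, the second jagged ligand, lies on an unplaced scaffold and had a mean count below the minimum of 5 set for the test. It ran from 0 to 5.62 scaled counts in FF sows with a median of 1.88 and from 0 to 4.58 in RES sows with a median of 0.999. No read pair was counted in 3 FF and 5 RES libraries. In the edgeR fit without a count filter, which held all 10 members, it was not called.

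Among the receptors, NOTCH2 (chr4:100951522-101152348, plus strand) was abundant and even between sows. It ran from 1172.8 to 2033.2 scaled counts in FF sows with a median of 1355.8 and from 1124.7 to 1846.0 in RES sows with a median of 1283.1. RES sow 4 and FF sow 14 were the highest of their groups, and the groups overlapped almost fully. The log2 fold change of -0.10 (SE 0.09, edgeR adjusted p = 0.483) had a 95% interval from -0.29 to 0.09, the narrowest of the members. A non-coding RNA on the other strand overlaps the NOTCH2 gene span in RefSeq, and the counting command set no strand option. Whether it shares exons with NOTCH2 in the Ensembl models used for counting was not examined.

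NOTCH3 (chr2:62364507-62402348, plus strand) is the receptor best known from the smooth muscle and pericytes around vessels. It ran from 26.8 to 94.97 scaled counts in FF sows with a median of 54.3 and from 14.9 to 69.9 in RES sows with a median of 32.8. The groups overlapped, and 11 of 14 RES sows lay below the FF median. RES against FF gave a log2 fold change of -0.51 (SE 0.24, 95% interval -1.01 to -0.01, unadjusted p = 0.0451, edgeR adjusted p = 0.156). Voom with sample quality weights gave -0.75 with an adjusted p of 0.0117, while the edgeR adjusted p lay between 0.0636 and 0.255 when 1 library was left out. Sows of the upper read-quality group gave an estimate of -0.51 and those of the lower group -0.54, which became -0.36 (SE 0.33, edgeR adjusted p = 0.743) without FF sow 10. Its RefSeq gene span overlaps another protein-coding gene on the same strand. By default featureCounts assigns reads on exons shared by counted genes to neither gene, and whether these genes share exons in the Ensembl models was not examined.

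NOTCH1, on an unplaced scaffold, is a receptor of endothelial and many other cells. It ran from 5.64 to 19.1 scaled counts in FF sows with a median of 13.9 and from 3.50 to 39.2 in RES sows with a median of 14.5. The 2 medians were close, and RES sow 3 stood highest. For NOTCH1 the log2 fold change was 0.22 (SE 0.24, 95% interval -0.28 to 0.72, edgeR adjusted p = 0.572), and 0.06 without RES sow 3. LFNG (chr3:1721044-1819426, plus strand), the fringe enzyme, ran from 0 to 15.2 scaled counts in FF sows with a median of 6.02 and from 2.29 to 9.98 in RES sows with a median of 6.24. Its log2 fold change of -0.32 (SE 0.33, 95% interval -1.0 to 0.35, edgeR adjusted p = 0.539) was the least precise of the members and was -0.18 without FF sow 10, the highest library, or without FF sow 4.

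Among the targets, HEY2 (chr1:37219887-37231321, minus strand) was the most abundant member. It ran from 684.5 to 1777.2 scaled counts in FF sows with a median of 1312.8 and from 704.9 to 2247.9 in RES sows with a median of 1574.4. Of the RES sows, 11 of 14 lay above the FF median, and the lowest was sow 7. This gave a log2 fold change of 0.19 (SE 0.14, 95% interval -0.08 to 0.47, edgeR adjusted p = 0.349).

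HES1 (chr13:131135970-131137865, plus strand), the broadly used target of the pathway, ran from 19.8 to 54.1 scaled counts in FF sows with a median of 31.8 and from 18.7 to 69.4 in RES sows with a median of 42.8. Again 11 of 14 RES sows lay above the FF median, and RES sow 6 was the highest. The log2 fold change was 0.34 (SE 0.18, 95% interval -0.03 to 0.71, edgeR adjusted p = 0.21), at 0.12 for sows of the upper and 0.55 for those of the lower read-quality group (0.58 without FF sow 10).

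HEY1 (chr4:56859640-56863807, plus strand) encodes a second repressor of the HEY family, used with HEY2 in arterial endothelium. It ran from 4.81 to 21.0 scaled counts in FF sows with a median of 10.1 and from 2.00 to 14.3 in RES sows with a median of 7.76. RES sows lay below the FF median in 10 of 14 cases, within overlapping ranges. Its log2 fold change was -0.56 (SE 0.26, 95% interval -1.10 to -0.02, unadjusted p = 0.0421, edgeR adjusted p = 0.15), opposite in sign to that of HEY2 and HES1.

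HEYL (chr6:95442655-95459597, minus strand), a target prominent in vascular smooth muscle, ran from 11.4 to 82.3 scaled counts in FF sows with a median of 18.3 and from 16.3 to 63.7 in RES sows with a median of 29.6. Of the RES sows, 13 of 14 lay above the FF median, whereas FF sows 1, 5 and 10 of the lower read-quality group, at 45.1, 47.6 and 82.3, lay above most RES sows. Over all sows the log2 fold change was 0.12 (SE 0.28, 95% interval -0.45 to 0.69, edgeR adjusted p = 0.808). It ran from 0.02 without RES sow 3 to 0.38 without FF sow 10, and it was 0.58 (edgeR adjusted p = 0.117) in the upper quality group and -0.24 (edgeR adjusted p = 0.871) in the lower. The sign of the lower-group value rested on FF sow 10, without which it was 0.14 (SE 0.39, edgeR adjusted p = 0.946).

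**Figure D3:**
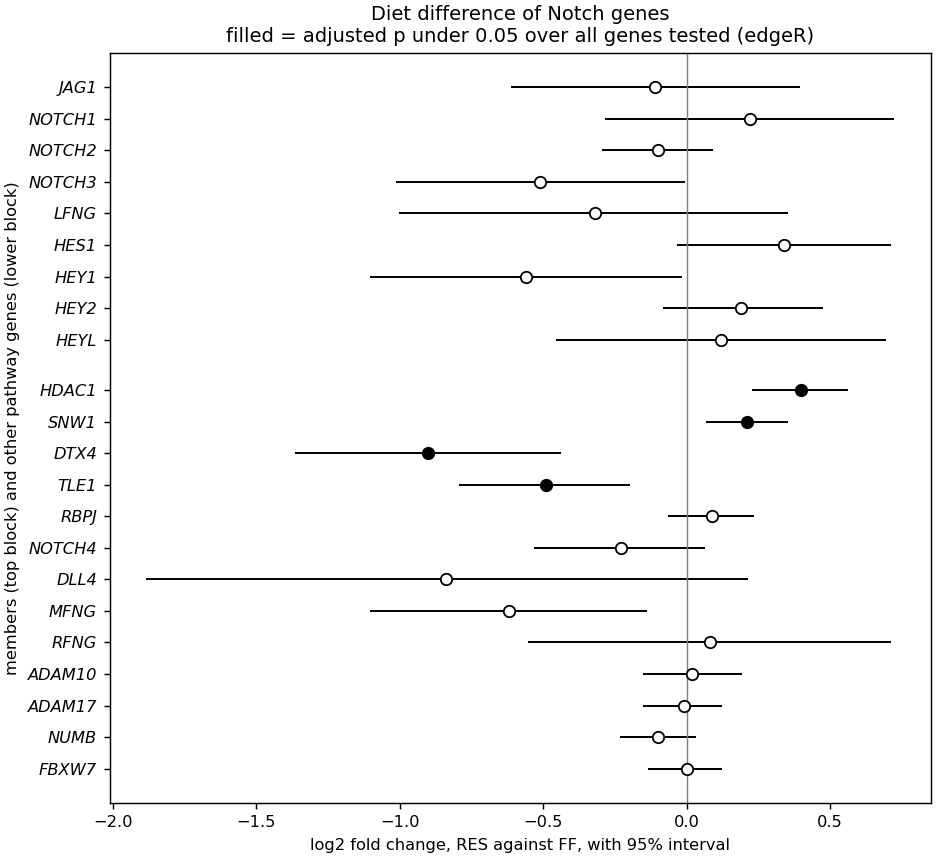
Points give the edgeR log2 fold change of RES against FF with its 95% interval for the 9 tested members (top block) and 13 other pathway genes (lower block), and a filled point marks an adjusted p under 0.05 over all genes tested. The 9 members are open points, and HDAC1 and SNW1 to the right and DTX4 and TLE1 to the left of 0 are filled.

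The other genes of the pathway were taken from a list of 61 names, of which 52 were tested. Of these 52, 2 rose and 3 fell in RES sows, where 8.29% of all genes rose and 5.85% fell. The median log2 fold change of the list was -0.088, with 17 estimates above 0 and 35 below. A share of 9.62% called is below the 14.1% of all genes, so the list as a whole did not stand out by its count. With 1 library left out, the number called ran from 4, in 10 of 27 such fits, to 10. It was 8 without FF sow 4, FF sow 10 or RES sow 10, where 16.8%, 18.3% and 16.4% of all genes were called, and 10 without RES sow 7, where 20.6% were.

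DTX4, a deltex-type ubiquitin ligase, ran from 25.2 to 97.5 scaled counts in FF sows with a median of 49.97 and from 9.79 to 63.3 in RES sows with a median of 31.1. All but 1 of 14 RES sows lay below the FF median, and the ranges overlapped. It fell from a mean of 54.7 ± 19.6 scaled counts in FF sows (SD, n = 13) to 30.2 ± 13.4 in RES sows (SD, n = 14). Its log2 fold change was -0.90 (SE 0.22, edgeR adjusted p = 0.00817). TLE1, a Groucho-type corepressor that HES proteins recruit, fell from 82.7 ± 23.1 to 60.1 ± 14.0 scaled counts, a log2 fold change of -0.49 (SE 0.15, edgeR adjusted p = 0.0236).

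HDAC1, a histone deacetylase of many corepressor complexes and not particular to Notch, rose from 661.2 ± 104.7 scaled counts in FF sows to 900.0 ± 143.5 in RES sows. Its log2 fold change was 0.40 (SE 0.08, edgeR adjusted p = 0.00203), and 13 of 14 RES sows lay above the FF median. SNW1, a splicing factor that is also a partner of RBPJ, rose from 1206.6 ± 155.8 to 1441.0 ± 184.1 scaled counts, a log2 fold change of 0.21 (SE 0.07, edgeR adjusted p = 0.0389). The calls of HDAC1, DTX4 and TLE1 held whichever 1 library was left out, and that of SNW1 held in 16 of 27 such fits. Within the upper read-quality group HDAC1 (0.41, edgeR adjusted p = 0.0221) and DTX4 (-0.80, edgeR adjusted p = 0.0327) were called, whereas TLE1 (-0.57, edgeR adjusted p = 0.0908) and SNW1 (0.11, edgeR adjusted p = 0.299) were not. Within the lower group none of these 4 genes was called, with estimates of 0.38, -1.01, -0.39 and 0.32 for HDAC1, DTX4, TLE1 and SNW1.

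The central steps of the pathway between receptor and target did not pass the test. RBPJ, the DNA-binding partner, had a log2 fold change of 0.09 (95% interval -0.06 to 0.23, edgeR adjusted p = 0.44). ADAM10 and ADAM17, the proteases of the first cut, had log2 fold changes of 0.02 (95% interval -0.15 to 0.19) and -0.01 (95% interval -0.15 to 0.12). NUMB, an inhibitor of the receptor, had -0.10 (95% interval -0.23 to 0.03). FBXW7, which marks the intracellular part for breakdown, had an interval from -0.13 to 0.12. The intervals of these abundant genes were narrow, whereas those of the low genes were wide. For DLL4, the delta-like ligand of endothelial tip cells, edgeR gave a log2 fold change of -0.84 (95% interval -1.88 to 0.21, adjusted p = 0.275), whereas limma voom with sample quality weights gave -1.6 (adjusted p = 0.0188) and called it. The log2 fold change of DLL4 in edgeR was -1.92 (adjusted p = 0.0822) in the upper read-quality group, 0.03 (adjusted p = 0.987) in the lower one and -0.15 (adjusted p = 0.961) in the lower one without FF sow 10. It ran from -1.19 without RES sow 7 to -0.55 without FF sow 2. NOTCH4, the endothelial receptor, had -0.23 (95% interval -0.53 to 0.06). The fringe enzymes MFNG and RFNG had -0.62 (95% interval -1.10 to -0.14, edgeR adjusted p = 0.0743) and 0.08 (95% interval -0.55 to 0.71). MFNG passed the threshold without FF sow 4, FF sow 13 or RES sow 7, with an adjusted p of 0.0304 in the last case, and under limma voom (-0.61, adjusted p = 0.0419). DLK1 and NRARP were not among the genes tested.

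Markers of vessels were set beside NOTCH3 and HEY1, whose estimates were below 0 but did not pass the test. Of 13 endothelial markers tested, 5 fell in RES sows, against 5.85% of all genes tested that were called lower, and 12 had an estimate below 0. Their median log2 fold change was -0.511, and that of all genes tested was -0.015. CDH5, the cadherin of endothelial junctions, fell from a mean scaled count of 139.8 in FF sows to 97.5 in RES sows (log2 fold change -0.56, SE 0.15, edgeR adjusted p = 0.0113). Of 10 mural vessel markers, 2 fell, PDGFRB and RGS5, both genes of pericytes, and 8 had an estimate below 0 (median log2 fold change -0.387). The summed endothelial level ran from 1598.2 to 2930.0 in FF sows with a median of 2237.7 and from 1158.0 to 3289.7 in RES sows with a median of 1570.3. For the mural vessel list the sums ran from 3378.9 to 8692.3 with a median of 4845.8 and from 2171.3 to 8683.1 with a median of 3667.5. None of the identified endothelial or mural vessel markers was at 0 in all libraries. The theca list had 1 of 8 markers called (CYP11A1, lower in RES sows) and 7 of 8 below 0, with a median log2 fold change of -0.646. Its summed level ran from 9540.8 to 41088.6 in FF sows with a median of 17421.5 and from 3182.9 to 35173.6 in RES sows with a median of 11932.7. Of the stroma markers 0 of 9 were called and 9 were below 0 (median -0.177), and of the immune markers 0 of 5 were called and 5 were below 0 (median -0.466). The oocyte list had 0 of 1 called and the erythroid list 1 of 2 (HBB, lower). An unadjusted edgeR p under 0.05 was found for 7 of 13 endothelial, 4 of 10 mural vessel, 4 of 8 theca, 2 of 9 stroma, 3 of 5 immune, 1 of 2 erythroid and 0 of 1 oocyte markers, against 30% of all genes tested. Of all 48 markers of other cells tested, 9 were called, against 14.1% of all genes tested. The count was 23 without RES sow 7, where 20.6% of all genes were called, 16 within the upper read-quality group, where 17.8% of all genes were called, and 0 within the lower one, where 0.00878% were. Over the 27 sows, with group means removed, NOTCH3 had a Pearson r of 0.438 with the summed endothelial level (permutation p = 0.0269, adjusted p = 0.154; Spearman rho 0.36, permutation p = 0.071) and 0.429 with the mural vessel level (permutation p = 0.0316, adjusted p = 0.154; Spearman rho 0.389, permutation p = 0.0501). HEY1 had an r of 0.414 with the endothelial level (permutation p = 0.0434, adjusted p = 0.154; rho 0.497, permutation p = 0.0106). HEY2 had the r farthest from 0, at -0.523 with the endothelial level (permutation p = 0.0106, adjusted p = 0.154), but its rho was -0.161 (permutation p = 0.427). NOTCH1, whose estimate was above 0 in RES sows, had an r of 0.422 with the endothelial level (permutation p = 0.0514, adjusted p = 0.154; rho 0.524, permutation p = 0.00645). None of the 18 such correlations passed adjustment, and they were added once the marker results were known. Without the 2 libraries farthest from the median vessel level the values of NOTCH3 became 0.276 and 0.309, and those of HEY1, HEY2 and NOTCH1 became 0.409, -0.311 and 0.546. Within the upper and the lower read-quality group they were 0.427 and 0.248 (endothelial) and 0.385 and 0.376 (mural vessel) for NOTCH3, 0.381 and 0.292 for HEY1, -0.0287 and -0.707 for HEY2, and 0.563 and 0.152 for NOTCH1. The part of vessel RNA in the values of these members was not tested further.

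The second comparison asks whether the targets followed the leading ligand and the leading receptor from sow to sow. The 4 targets and LFNG were correlated with JAG1 and with NOTCH2 in each group, which makes 20 correlations of scaled counts. None passed a Benjamini-Hochberg adjusted p under 0.05 in a permutation test, and 1 had an unadjusted p under 0.05. The r of HES1 was above 0 with JAG1 and below 0 with NOTCH2 in both groups, and none of these values held after adjustment. With JAG1, HES1 had an r of 0.451 in 13 FF sows (permutation p = 0.121, adjusted p = 0.502; rho 0.434, permutation p = 0.141) and of 0.451 in 14 RES sows (permutation p = 0.105, adjusted p = 0.502; rho 0.389, permutation p = 0.17). The positive sign was present in the upper read-quality group only, at 0.551 and 0.561, and the lower group gave -0.13 and -0.112. Without the 2 libraries farthest from the median JAG1 level, r was 0.467 in FF and 0.0696 in RES sows, so the RES value rested on those libraries. In FF sows, r fell to 0.06 without sow 7.

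The lowest p belonged to HES1 and NOTCH2 in RES sows. There r was -0.677 (permutation p = 0.00718, adjusted p = 0.144) and rho was -0.679 (permutation p = 0.00913). The sign was the same in the upper quality group (-0.576, exact permutation p = 0.184) and the lower one (-0.784, exact permutation p = 0.0341), with 7 RES sows in each. On the log2 scale r was -0.74 with an adjusted p of 0.0486, and without RES sow 12 it was -0.76 with an adjusted p of 0.0388. Without RES sow 4, which had the highest NOTCH2 and the lowest HES1 of its group, it was -0.52, and without the 2 libraries farthest from the median NOTCH2 level it was -0.38 (permutation p = 0.22), so the relation rested in good part on those sows. In FF sows r was -0.296 (permutation p = 0.33, adjusted p = 0.735). The difference between the groups was -0.381 (permutation p = 0.164, adjusted p = 0.819).

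**Figure D4:**
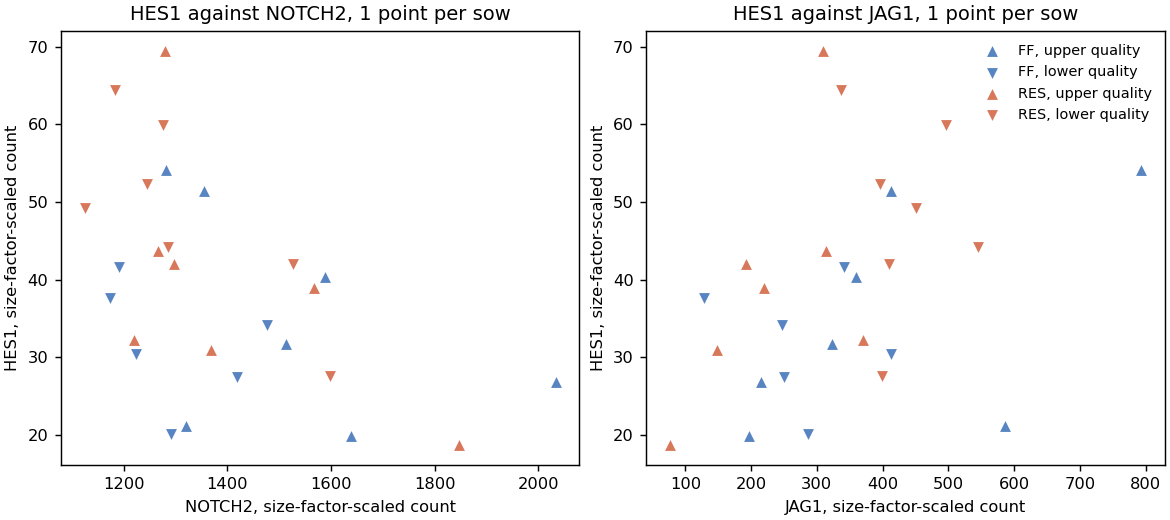
Each point is 1 sow and gives the size-factor-scaled count of HES1 against that of NOTCH2 (left) and JAG1 (right), coloured by diet (FF blue, RES orange) and shaped by read-quality group. The RES sow with the highest NOTCH2 (1846.0) had the lowest HES1 (18.7) and the lowest JAG1 (76.6).

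The r of HEY2 with JAG1 was below 0 in both groups without passing the test. It was -0.48 in FF sows (permutation p = 0.0981, adjusted p = 0.502; rho -0.582, permutation p = 0.0401) and -0.394 in RES sows (permutation p = 0.165, adjusted p = 0.548; rho -0.455, permutation p = 0.105). Without the 2 libraries farthest from the median JAG1 level the values were -0.52 and -0.751, and by read-quality group they were -0.641 and -0.566 in FF and 0.137 and -0.608 in RES sows. HEY1 had r with JAG1 of -0.344 in FF and 0.281 in RES sows and with NOTCH2 of 0.232 and -0.235. With NOTCH2, HEY2 had an r of 0.449 in FF sows (permutation p = 0.125, adjusted p = 0.502; rho 0.319), which was 0.206 without the 2 libraries farthest from the median NOTCH2 level and 0.714 and 0.0237 in the upper and lower read-quality groups, and of 0.0692 in RES sows. For HEYL and LFNG r ran between -0.238 and 0.104. No difference of correlation between RES and FF passed adjustment in the 10 pairs (lowest adjusted p = 0.819, lowest unadjusted p = 0.154).

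**Figure D5:**
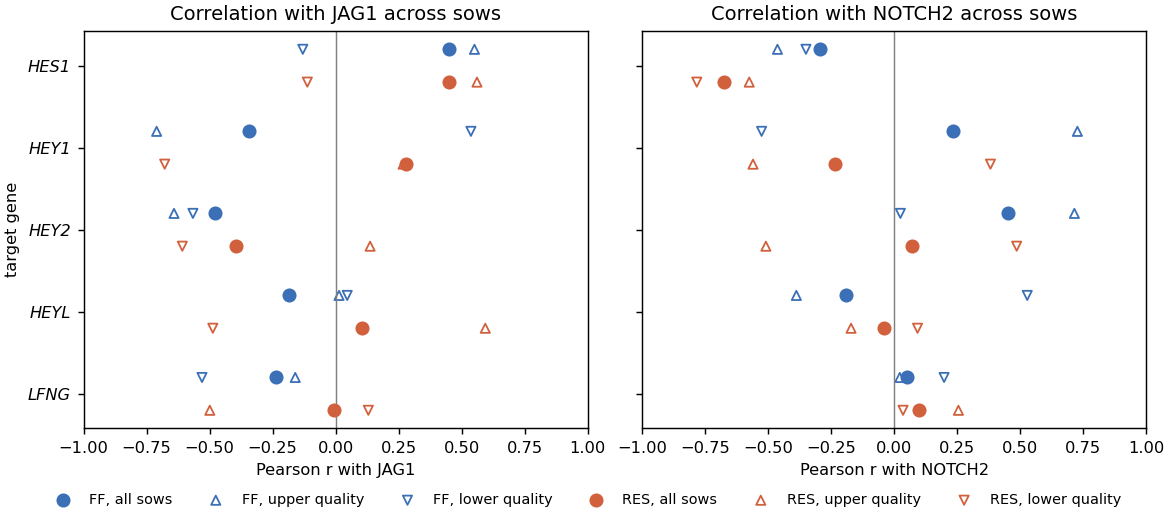
Filled points give Pearson's r of each target with JAG1 (left) and NOTCH2 (right) across 13 FF (blue) or 14 RES (orange) sows, and open triangles give r within the upper (pointing up) and lower (pointing down) read-quality group. HES1 with NOTCH2 lies left of 0 in all 6 values, and the triangles of most other pairs fall on both sides of 0.

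Across all 11384 genes tested, the 3 most like JAG1 from sow to sow were LRP8, a lipoprotein receptor (r = 0.846), CHAC1, a gene of the integrated stress response (r = 0.833), and AGFG1 (r = 0.828). The measure was Pearson's r of log2(scaled count + 1) over the 27 libraries after removal of the group means. Of the members, NOTCH1 (r = 0.541) and HES1 (r = 0.496) came nearest to JAG1, at ranks 391 and 561, while NOTCH2 stood near the opposite end (r = -0.431, rank 10769). The 3 genes most like NOTCH2 were GHR, the growth hormone receptor (r = 0.813), MTR, methionine synthase (r = 0.812), and MAP3K5, a stress kinase (r = 0.805). HES1 was among the genes least like NOTCH2 (r = -0.512, rank 10909). These values describe likeness over the same 27 libraries, which differ in depth and read quality, and carry no test. None of the 6 genes was called between RES and FF sows, with edgeR adjusted p from 0.0788 to 0.679.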

How the data were processed

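The authors cleaned the reads, aligned them with HISAT2 2.2.1 to Sscrofa11.1, removed PCR copies with UMI-tools 1.1.4 and deposited raw counts of read pairs on exons of Ensembl 110 genes per library, made with featureCounts 1.6.2 without a strand option. These counts hold uniquely mapped reads and are not normalized. Symbols were matched for 15623 of 35670 identifiers, and 11384 genes with a symbol and a mean count of at least 5 were tested after 38 small RNAs were left out, all members in the same fit. RES was compared with FF by edgeR 4.0.16 (TMM, quasi-likelihood test, two-sided, R 4.3.3), with Benjamini-Hochberg adjustment and calls at an adjusted p under 0.05. SE is the log2 fold change over the root of F, and 95% intervals follow from it. The test found 87% of simulated 2-fold and 57% of simulated 1.5-fold changes, given to 200 genes drawn at random from the 11384 tested. These rates average over genes of all levels and were not worked out for the members. Scaled counts used DESeq2 1.42.0 size factors over 17467 identifiers. Correlations used 100000 permutations, or all of them within read-quality groups, two-sided (Python 3.11.15, scipy 1.17.1). Alternatives, including limma 3.58.1 voom, are listed in the closing section. Each sow is a separate animal. The numbers of FF and RES sows name different animals and did not pair them.

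Named were the members, the called pathway genes (at most 5 in each direction), 12 pathway genes fixed by name and the 3 genes most like JAG1 and NOTCH2. Members and lists were chosen with earlier results of these data known. Promoter windows come from the RefSeq annotation of Sscrofa11.1, and exon lengths too, whereas counts rest on Ensembl models. Protein sequences were not used here. A called gene of the pathway list and a promoter window are not reported here.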

Additional observations from a re-analysis of the deposited data

How the results depend on the processing

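The count of members called stayed at 0 under DESeq2, DESeq2 size factors, filterByExpr, no count filter, all identifiers, the replicate block, read-quality group or RNA integrity as a covariate, either quality group alone, the lower one without FF sow 10 and each of 27 libraries left out, and was 1 under voom with sample quality weights. For the other pathway genes the count was 5, 14 under voom, 0 in the lower quality group with or without FF sow 10, and 4 to 10 with 1 library left out. For markers of other cells it was 9, 21 under voom, 16 with upper-quality sows alone, 0 with lower-quality sows alone with or without FF sow 10, and 7 to 23 with 1 library left out. The sow numbers did not pair the samples (median correlation 0.0104 over 13 pairs, 1 pair over 0.1), and the replicate block left 0 members and 4 pathway genes called, without SNW1 (0.22, adjusted p = 0.0757).

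Log2 fold changes that turned sign were JAG1 (0.60 in the lower quality group, 0.58 there without FF sow 10, -0.19 to 0.05 with 1 library left out), NOTCH1 (-0.03, upper group), HEYL (-0.24, lower group), NOTCH2 and LFNG (0.03 and 0.13, lower group without FF sow 10, a fit added after the data had been seen), RBPJ (-0.03, upper group), DLL4 (0.03, lower group) and the genes closest to 0. These were RFNG (-0.07 with the replicate block, -0.08 in the upper group, -0.13 under voom, -0.11 to 0.19 with 1 library left out), ADAM10 (-0.07 in the upper group, -0.00 with RNA integrity, -0.01 to 0.05), ADAM17 (0.03 with all identifiers, 0.09 in the upper group, 0.01 under voom, -0.04 to 0.01) and FBXW7 (0.04 with all identifiers and in the upper group, 0.01 without a count filter, with the block, with RNA integrity and under voom, -0.03 to 0.02).

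The count of correlations past adjustment was 0, 1 on the log2 scale and 0 to 1 with 1 library left out. In the lower quality group the sign turned for JAG1 with HES1 (-0.13 FF, -0.11 RES), HEY1 (0.54 FF, -0.68 RES), HEYL (0.05 FF, -0.49 RES) and LFNG (0.13 RES), and for NOTCH2 with HEY1 (-0.53 FF, 0.38 RES) and HEYL (0.53 FF, 0.09 RES). In the upper group it turned for JAG1 with HEY2 (0.14 RES) and HEYL (0.01 FF) and for NOTCH2 with HEY2 (-0.51 RES). Without the 2 farthest libraries it turned for JAG1 with HEY1 (0.26 FF), HEYL (0.07 FF, -0.21 RES) and LFNG (0.11 RES), and for NOTCH2 with HEY1 (-0.30 FF), HEYL (0.07 FF) and LFNG (-0.17 RES). JAG1 with LFNG in RES was 0.04 on TMM-scaled counts, and NOTCH2 with LFNG in FF was -0.05 on the log2 scale. With 1 library left out, the ranges that crossed 0 were, for JAG1 in RES, HEYL -0.01 to 0.21 and LFNG -0.26 to 0.11, and for NOTCH2, HEY1 -0.19 to 0.53 (FF) and -0.48 to 0.04 (RES), HEY2 -0.02 to 0.38 (RES), HEYL -0.24 to 0.19 (RES) and LFNG -0.02 to 0.16 (FF) and -0.05 to 0.21 (RES). The causes were not tested.

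Counts limit NOTCH1, HEY1, LFNG and JAG2, the members with the lowest counts.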
